A study of Mus musculus with 6 samples.

Results

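The genes described here are those of the cell division cycle, 39 named members that copy DNA, build the mitotic spindle or drive the cycle from one phase to the next. All probe sets with 1 platform gene symbol among these names were taken, which gave 95 probe sets for 38 of the 39 genes; cyclin B1 (Ccnb1) had no such probe set and no value is given for it. Their transcripts were read in homogenised whole lung from 6 females of the FVB/N strain, each mouse on its own Affymetrix Mouse Genome 430 2.0 array. In the R899X high RVSP group, 2 mice carried the transgenes SM22-rtTA and TetO7-BMPR2-R899X, each heterozygous, and had a substantially raised right ventricular systolic pressure (RVSP) at death. In the R899X normal RVSP group, 2 mice of the same genotype had near normal pressure. The control group held 2 mice with SM22-rtTA alone, a doxycycline-activated transactivator under the promoter of the smooth muscle gene SM22 (Tagln). Every mouse, controls included, received doxycycline for 9 weeks, starting at an age of 4 weeks, and was taken at 13 weeks. The R899X mutation cuts short the tail of BMPR2, which receives signals of bone morphogenetic proteins. The transgene was driven from a smooth muscle promoter while the RNA came from all cells of the lung. In such bulk RNA fewer dividing cells cannot be told apart from less RNA of these genes per cell.

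A cell that divides first loads the Mcm2 to Mcm7 helicase onto its chromosomes with the help of Cdc6, activates it with Cdc45, and copies DNA with the sliding clamp Pcna and with nucleotides from ribonucleotide reductase (Rrm1, Rrm2) and thymidylate synthase (Tyms). It then makes the proteins of mitosis, among them the kinase Cdk1 with its cyclins, the Aurora kinases, the spindle motors and the checkpoint proteins. The first set is transcribed around the start of DNA synthesis under E2F factors, the second later under the MuvB complex with B-Myb and Foxm1. Adult lung is a quiet tissue in which few cells divide, whereas growth of vessel wall cells is a known feature of pulmonary hypertension. The members were divided by role into 12 replication genes, 18 mitosis genes, the 3 D-type cyclins and 6 regulators of the cycle.

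The promoters of both sets are shown because short elements in them are known to time replication and mitosis genes apart. RefSeq promoters of mouse assembly GRCm38.p6, 250 bases before to 50 after the gene start, were listed for 11 of 12 replication genes and 15 of 18 mitosis genes. They were searched on both strands for TTTGAA, the cell cycle homology region (CHR) of mitotic promoters, for CCAAT, and for the E2F letters TTCCCGC or TTGGCGC. Pcna (chr2:132253131-132253430, minus strand) and Mcm3 (chr1:20820263-20820562, minus strand) stand for replication, and Mki67 (chr7:135716330-135716629, minus strand) and Ccnb2 (chr9:70421505-70421804, minus strand) for mitosis; all are written 5′ to 3′ with matches to any of these letters in capitals.
Pcna: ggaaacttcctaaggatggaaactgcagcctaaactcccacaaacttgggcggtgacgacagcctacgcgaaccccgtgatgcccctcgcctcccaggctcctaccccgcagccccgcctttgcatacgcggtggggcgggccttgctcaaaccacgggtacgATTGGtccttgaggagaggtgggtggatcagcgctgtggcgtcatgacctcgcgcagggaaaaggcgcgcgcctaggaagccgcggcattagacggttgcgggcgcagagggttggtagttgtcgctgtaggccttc
Mcm3: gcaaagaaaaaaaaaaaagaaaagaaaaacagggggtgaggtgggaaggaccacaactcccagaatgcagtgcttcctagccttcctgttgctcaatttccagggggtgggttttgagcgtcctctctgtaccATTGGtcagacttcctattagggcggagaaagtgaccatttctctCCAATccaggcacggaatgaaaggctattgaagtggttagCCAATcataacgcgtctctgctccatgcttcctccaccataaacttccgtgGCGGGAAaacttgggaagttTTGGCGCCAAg
Mki67: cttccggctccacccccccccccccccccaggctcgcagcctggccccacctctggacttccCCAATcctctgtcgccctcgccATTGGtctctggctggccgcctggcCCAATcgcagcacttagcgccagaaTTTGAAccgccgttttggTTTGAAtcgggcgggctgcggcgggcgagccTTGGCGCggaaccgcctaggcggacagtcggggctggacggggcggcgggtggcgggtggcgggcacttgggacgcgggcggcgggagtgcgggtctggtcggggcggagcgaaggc
Ccnb2: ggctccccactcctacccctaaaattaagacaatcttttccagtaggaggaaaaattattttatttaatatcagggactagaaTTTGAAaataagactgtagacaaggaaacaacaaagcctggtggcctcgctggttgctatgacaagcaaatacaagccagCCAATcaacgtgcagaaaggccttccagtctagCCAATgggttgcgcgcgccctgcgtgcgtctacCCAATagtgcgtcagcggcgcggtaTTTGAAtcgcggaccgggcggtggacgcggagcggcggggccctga
The Mcm3 window held 3 matches to the E2F letters, of which the last 2 overlap, and 0 to the CHR. The Ccnb2 window held 2 CHR matches and 0 E2F matches, Mki67 held 2 and 1, and Pcna held neither and 1 CCAAT.

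Over the classes, the E2F letters stood in a promoter of 6 of 11 replication genes (54.5%) and 3 of 15 mitosis genes (20.0%), against 7.79% of 27025 genes in the promoter table. The CHR stood in a promoter of 2 of 11 replication genes (18.2%) and 11 of 15 mitosis genes (73.3%), against 20.2% of all genes. CCAAT was present in a promoter of 9 of 11 replication and 13 of 15 mitosis genes, against 41.1% of all genes. The replication genes with E2F letters were Mcm3, Mcm5, Mcm6, Mcm7, Cdc6 and Rrm1. The mitosis genes without a CHR match were Birc5, Bub1, Ccnb1 and Nusap1. These are counts of letters, without a test, and a missing match says only that the letters are not in this window.

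**Figure D1:**
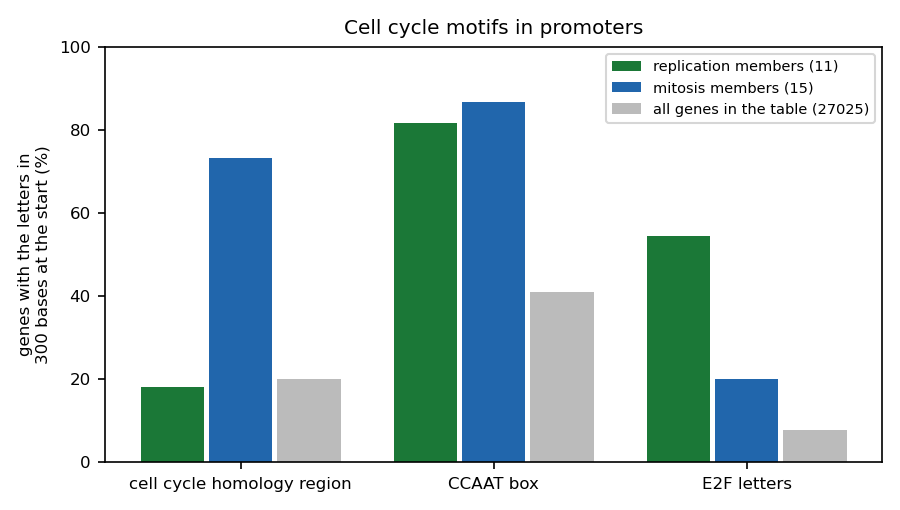
Share of genes (%) whose 300-base promoter window held the cell cycle homology region TTTGAA, the CCAAT box or the E2F letters, on either strand, for 11 replication members, 15 mitosis members and all 27025 genes of the promoter table. The CHR bar is tallest for mitosis genes (73.3%) and the E2F bar for replication genes (54.5%).

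The arrays were compared before the members were read. All carried a common scaling, with a median intensity between 128 and 141. The log2 distance between arrays, as a root mean square, averaged 0.439 over 3 pairs within a group and 0.437 over 12 pairs between groups. Control 1 and R899X normal RVSP 1 stood apart from the other arrays, with mean distances of 0.496 and 0.492 against at most 0.420, and they had the highest 3′ over 5′ ratios of the beta-actin control probe sets (1.89 and 1.64, against 1.27 to 1.45). The same ratio of the Gapdh control probe sets did not mark this pair (0.97 and 0.70, against 0.72 to 1.03). By limma with Benjamini-Hochberg adjustment, 0 of 27022 probe sets (0%) were under 0.05 in each of the 4 comparisons, and an ordinary linear model also gave 0; 1527 had an unadjusted p under 0.05 for R899X high RVSP against control, 1174 for R899X normal RVSP against control, 707 for high against normal RVSP and 1601 for all R899X mice against control, where 1351 would be expected by chance. No member therefore passed, and the members are described below by their values on each array, by the log2 difference with its standard error (±) from limma, and by whether the arrays of the groups overlapped.

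Many members were dim. Of the 38 genes with a probe set, 30 kept at least 1 of the probe sets above the filter on low values, which removed the lower 40% of all probe sets by their mean over the 6 arrays. Among replication genes 11 of 12 were kept, with Tyms below the filter, its 4 probe sets lying between 1.66 and 76.6. Among mitosis genes 11 of the 17 with a probe set were kept. Those below were the kinases Aurka, Aurkb and Plk1, the checkpoint kinase Bub1b, and the spindle motors Kif11 and Kif20a, and their highest intensity on any array was 110.1, in a probe set of Aurka. Cyclin E1 (Ccne1) was the remaining gene below the filter, with intensities between 5.17 and 98.2. These 8 genes are accounted for by these ranges and were not tested.

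**Figure D2:**
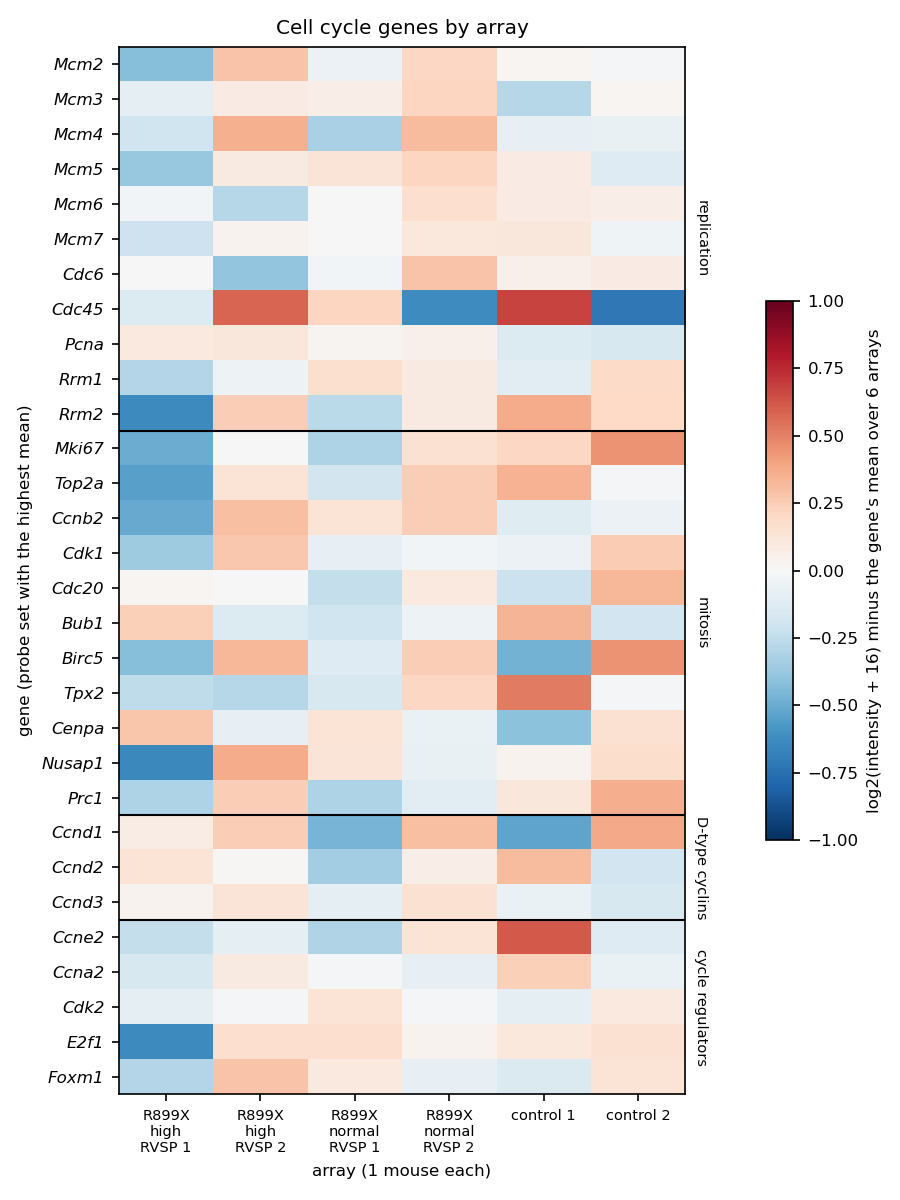
Deviation of log2(intensity + 16) from each gene's mean over the 6 arrays, for the 30 measured members (rows, by class, 1 probe set each) and the 6 arrays (columns, R899X high RVSP, R899X normal RVSP and control, 2 mice each). The column of R899X high RVSP 1 is blue in most rows, while that of R899X high RVSP 2 is mostly red.

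Among replication genes, Pcna and 1 of the Mcm3 probe sets were higher in all R899X lungs than in control lungs, without passing the test. Pcna, the sliding clamp that holds polymerases on DNA, had intensities of 5571 and 5629 in high-RVSP lungs, 5297 and 5387 in normal-RVSP lungs and 4720 and 4652 in control lungs. The 3 groups did not overlap, and all 4 R899X mice lay above both controls. The difference was 0.26 ± 0.14 for R899X high RVSP against control (1.19-fold, adjusted p = 0.865), 0.19 ± 0.14 for normal RVSP against control (adjusted p = 0.987) and 0.22 ± 0.12 for all R899X mice (adjusted p = 0.835), and none passed. Pcna in high against normal RVSP differed by 0.07 ± 0.14, which turned to -0.013 when each array was centred on its median.

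Mcm3, a helicase subunit, was read by 4 probe sets above the filter. The brightest, 1420028_s_at, gave 523 and 591 in high-RVSP lungs, 585 and 651 in normal-RVSP lungs and 455 and 565 in control lungs. Here normal-RVSP lungs lay above both controls (0.28 ± 0.19, adjusted p = 0.987) and high-RVSP lungs overlapped them. Probe set 1426653_at gave 175 and 233 in high-RVSP lungs, 193 and 167 in normal-RVSP lungs and 86.7 and 126 in control lungs, so that all 4 R899X mice lay above both controls. Its difference was 0.85 ± 0.28 for high RVSP (limma, unadjusted p = 0.0155, adjusted p = 0.857), 0.70 ± 0.28 for normal RVSP (unadjusted p = 0.0367, adjusted p = 0.987) and 0.77 ± 0.24 for all R899X mice (unadjusted p = 0.0123, adjusted p = 0.832) in limma. All 4 kept probe sets of Mcm3 pointed the same way, above control, in both groups, by amounts that differed between probe sets.

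The other helicase subunits separated the groups less clearly. Mcm2 had 377 and 626 in high-RVSP lungs, 491 and 592 in normal-RVSP lungs and 519 and 506 in control lungs, so its groups overlapped throughout. Mcm4 probe set 1416214_at gave 995 and 1125 in high-RVSP lungs, 1015 and 1240 in normal-RVSP lungs and 862 and 989 in control lungs. All 4 R899X mice lay above both controls on that probe set, while the brighter Mcm4 probe set, 1436708_x_at, overlapped. Mcm5 had 552 and 767 in high-RVSP lungs, 789 and 838 in normal-RVSP lungs and 764 and 658 in control lungs. Its normal RVSP mice lay above both other groups, by 0.19 ± 0.21 over control, and high-RVSP lungs lay 0.31 ± 0.21 below normal-RVSP lungs.

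Mcm6 probe set 1416251_at gave 429 and 356 in high-RVSP lungs, 437 and 495 in normal-RVSP lungs and 465 and 459 in control lungs. The high RVSP mice lay below both other groups, by -0.23 ± 0.19 against control and -0.24 ± 0.19 against normal RVSP. A second Mcm6 probe set, 1438852_x_at, did not follow, with 273 and 430 in high-RVSP lungs, 333 and 427 in normal-RVSP lungs and 294 and 296 in control lungs. Probe sets ending in x_at or s_at can hold probes shared with other transcripts, which makes the reading of 1438852_x_at uncertain. The brightest probe sets of Mcm2, Mcm3, Mcm4, Mcm5, Mcm7 and Rrm2 have the same endings, and their reading shares that limit. Mcm7 was read by 4 probe sets, of which 3 gave overlapping groups in both comparisons with control. The fourth, 1416030_a_at, placed normal-RVSP lungs at 663 and 690, above control lungs at 512 and 598.

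Cdc6, which loads the helicase, was dim, at 94.2 and 67.4 in high-RVSP lungs, 91.6 and 118 in normal-RVSP lungs and 97.9 and 100.4 in control lungs. The high RVSP mice lay below the controls (-0.26 ± 0.29), R899X high RVSP 1 only narrowly. Cdc45, the helicase activator, ranged from 49.6 to 156 with no order by group on its brighter probe set. Rrm1, the large subunit of ribonucleotide reductase, had 454 and 539 in high-RVSP lungs, against 626 and 596 in normal-RVSP lungs and 519 and 641 in control lungs, and lay -0.30 ± 0.19 from normal RVSP with no overlap. Its other kept probe set, 1448127_at, overlapped in that comparison and placed normal-RVSP lungs, at 616 and 474, above control lungs, at 452 and 341. Rrm2, the small subunit that is made in S phase, had 269 and 511 in high-RVSP lungs, 352 and 456 in normal-RVSP lungs and 560 and 494 in control lungs on its brightest probe set. The normal RVSP mice lay below the controls there (-0.38 ± 0.30), and the other kept Rrm2 probe sets overlapped.

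**Figure D3:**
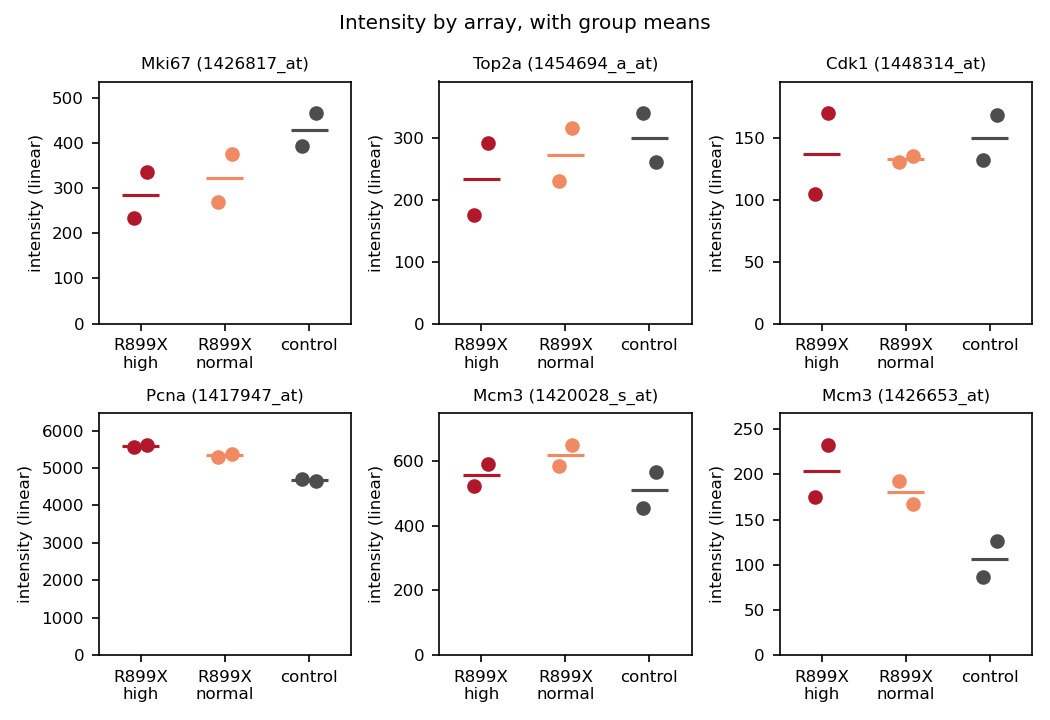
Intensity on a linear scale starting at 0 (points, 1 per mouse; short lines, mean of 2 mice) for 3 mitosis probe sets (Mki67, Top2a, Cdk1) and 3 replication probe sets (Pcna and 2 of Mcm3), in R899X high RVSP, R899X normal RVSP and control lungs. For Mki67 both R899X groups lie below the controls at 392 and 466, and for Pcna and Mcm3 1426653_at both lie above the controls.

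Among mitosis genes, Mki67 was lower in all R899X lungs than in control lungs, without passing the test. Mki67, the nuclear protein Ki-67 that marks cycling cells, had intensities of 234 and 336 in high-RVSP lungs, 268 and 375 in normal-RVSP lungs and 392 and 466 in control lungs. Each of the 4 R899X mice lay below both controls. The difference was -0.58 ± 0.26 for high RVSP (0.669-fold, limma unadjusted p = 0.0559, adjusted p = 0.857), -0.41 ± 0.26 for normal RVSP (adjusted p = 0.987) and -0.50 ± 0.23 for all R899X mice (limma unadjusted p = 0.0586, adjusted p = 0.832). High and normal RVSP mice overlapped (-0.17 ± 0.26).

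Top2a, the topoisomerase that untangles sister chromosomes, had 177 and 293 in high-RVSP lungs, 231 and 317 in normal-RVSP lungs and 341 and 261 in control lungs. The groups overlapped, with differences from control of -0.37 ± 0.30 for high RVSP and -0.13 ± 0.30 for normal RVSP. Its dimmer probe set, 1442454_at, had 65.6 and 106 in high-RVSP lungs, 57.5 and 77.0 in normal-RVSP lungs and 155 and 88.7 in control lungs. Prc1, which bundles microtubules of the central spindle, was read by 2 kept probe sets. On 1423774_a_at it had 83.5 and 127 in high-RVSP lungs, 85.9 and 115 in normal-RVSP lungs and 185 and 131 in control lungs, and all 4 R899X mice lay below both controls (-0.55 ± 0.27 for all R899X mice, adjusted p = 0.832). On the brighter 1423775_s_at only normal-RVSP lungs lay wholly below the controls (-0.44 ± 0.29).

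Tpx2, which activates Aurora A on the spindle, had 64.9 and 63.2 in high-RVSP lungs, 70.3 and 95.4 in normal-RVSP lungs and 122 and 79.6 in control lungs. The high RVSP mice lay below both other groups, by -0.52 ± 0.32 against control and -0.29 ± 0.32 against normal RVSP. Both high-RVSP values and that of R899X normal RVSP 1 lay under the filter level of about 74.9. This dim probe set passed the filter through its control values, which favoured a difference below control. A second kept probe set of Tpx2, 1447519_x_at, overlapped in all comparisons. Ccnb2, a mitotic cyclin, went the other way in normal-RVSP lungs, at 146 and 159 against 120 and 126 in control lungs (0.28 ± 0.31), while high-RVSP lungs had 88.0 and 166.

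Cdk1, the kinase that starts mitosis, had 105 and 170 in high-RVSP lungs, 130 and 136 in normal-RVSP lungs and 132 and 169 in control lungs, so its groups overlapped. Cdc20, which activates the anaphase-promoting complex, had 461 and 458 in high-RVSP lungs, 385 and 489 in normal-RVSP lungs and 391 and 578 in control lungs on its brightest probe set. The normal RVSP mice and the controls spanned the narrow range of high-RVSP lungs. The other kept Cdc20 probe set, 1416664_at, placed high-RVSP lungs, at 285 and 270, above control lungs, at 234 and 261 (0.16 ± 0.24). Normal-RVSP lungs, at 190 and 276, overlapped both. Bub1, a checkpoint kinase, ranged from 127 to 192 over the 6 arrays, Birc5 (survivin) from 75.5 to 157, Nusap1, a spindle protein, from 125 to 269, and the centromere histone Cenpa from 196 to 325. In none of these 4 did the arrays of any compared groups separate on the brightest probe set. A dimmer Cenpa probe set, 1444416_at, did, with 54.4 and 96.4 in normal-RVSP lungs against 125 and 134 in control lungs (-0.71 ± 0.32, adjusted p = 0.987).

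The D-type cyclins carry growth signals into the cycle. Ccnd1 had 3872 and 4358 in high-RVSP lungs, 2667 and 4525 in normal-RVSP lungs and 2552 and 4780 in control lungs, and both lower values came from the pair of arrays that stood apart. Its next brightest probe set, 1448698_at, placed high-RVSP lungs, at 2000.5 and 1988, below control lungs, at 2264 and 2288. The dimmest Ccnd1 probe set, 1417419_at, placed them above, at 1704 and 1866 against 1164 and 1370 (0.49 ± 0.57). Ccnd2 had 3652 and 3362 in high-RVSP lungs, 2618 and 3487 in normal-RVSP lungs and 4160 and 2918 in control lungs. Ccnd3 had 1868 and 2000.3 in high-RVSP lungs, 1711 and 2034 in normal-RVSP lungs and 1745 and 1628 in control lungs, and its high RVSP mice lay above the controls (0.20 ± 0.16). In high RVSP against control, 2 of 3 kept probe sets of Ccnd1 pointed up, 5 of 7 of Ccnd2 and 2 of 3 of Ccnd3.

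Other, dimmer probe sets of these cyclins gave larger differences that did not agree among themselves. Ccnd3 1444323_at had 89.5 and 81.5 in high-RVSP lungs, 47.9 and 81.3 in normal-RVSP lungs and 175 and 137 in control lungs, and all 4 R899X mice lay below both controls. Its difference was -0.76 ± 0.31 for high RVSP, -1.12 ± 0.31 for normal RVSP (limma unadjusted p = 0.00716, adjusted p = 0.987) and -0.94 ± 0.27 for all R899X mice. The R899X values of this probe set lay near or under the filter level of about 74.9, and it passed the filter through its control values. The filter thus favoured a difference in this direction, which is given as a description only. Ccnd3 1438805_at had 701 and 538 in high-RVSP lungs against 310 and 435 in normal-RVSP lungs and 426 and 469 in control lungs, a difference of 0.72 ± 0.23 between high and normal RVSP (limma unadjusted p = 0.0148, adjusted p = 0.9996). Ccnd2 1416124_at had 153 and 250.3 in high-RVSP lungs, against 35.1 and 124 in normal-RVSP lungs and 89.3 and 108 in control lungs, with a difference of 1.33 ± 0.47 between high and normal RVSP (limma unadjusted p = 0.0225, adjusted p = 0.9996). In that comparison all kept probe sets of Ccnd2 and of Ccnd3 pointed up, and R899X normal RVSP 1 held the lowest value on most of them. Without that array 1 of the 3 cyclins lay above normal RVSP in high-RVSP lungs.

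Among the regulators, Ccna2, the cyclin of S phase and early mitosis, had 131 and 159 in high-RVSP lungs, 147 and 140 in normal-RVSP lungs and 178 and 141 in control lungs, with overlap. Ccne2, a cyclin of the entry into S phase, had 106 and 120 in high-RVSP lungs, 101 and 143 in normal-RVSP lungs and 205 and 116 in control lungs, where control 1 alone stood high. Cdk2, the partner of these cyclins, ranged from 432 to 512. E2f1, the activator of replication genes, had 79.8 and 151 in high-RVSP lungs, 151 and 137 in normal-RVSP lungs and 144 and 149 in control lungs, with R899X high RVSP 1 lowest on that probe set, 1417878_at. Its other kept probe set, 1431875_a_at, had 97.0 and 162 in high-RVSP lungs, 103 and 135 in normal-RVSP lungs and 82.5 and 179 in control lungs, with control 1 lowest. Foxm1, the activator of mitosis genes, ranged from 86.7 to 138 with differences of -0.00 ± 0.30 for high RVSP and 0.01 ± 0.30 for normal RVSP against control.

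**Figure D4:**
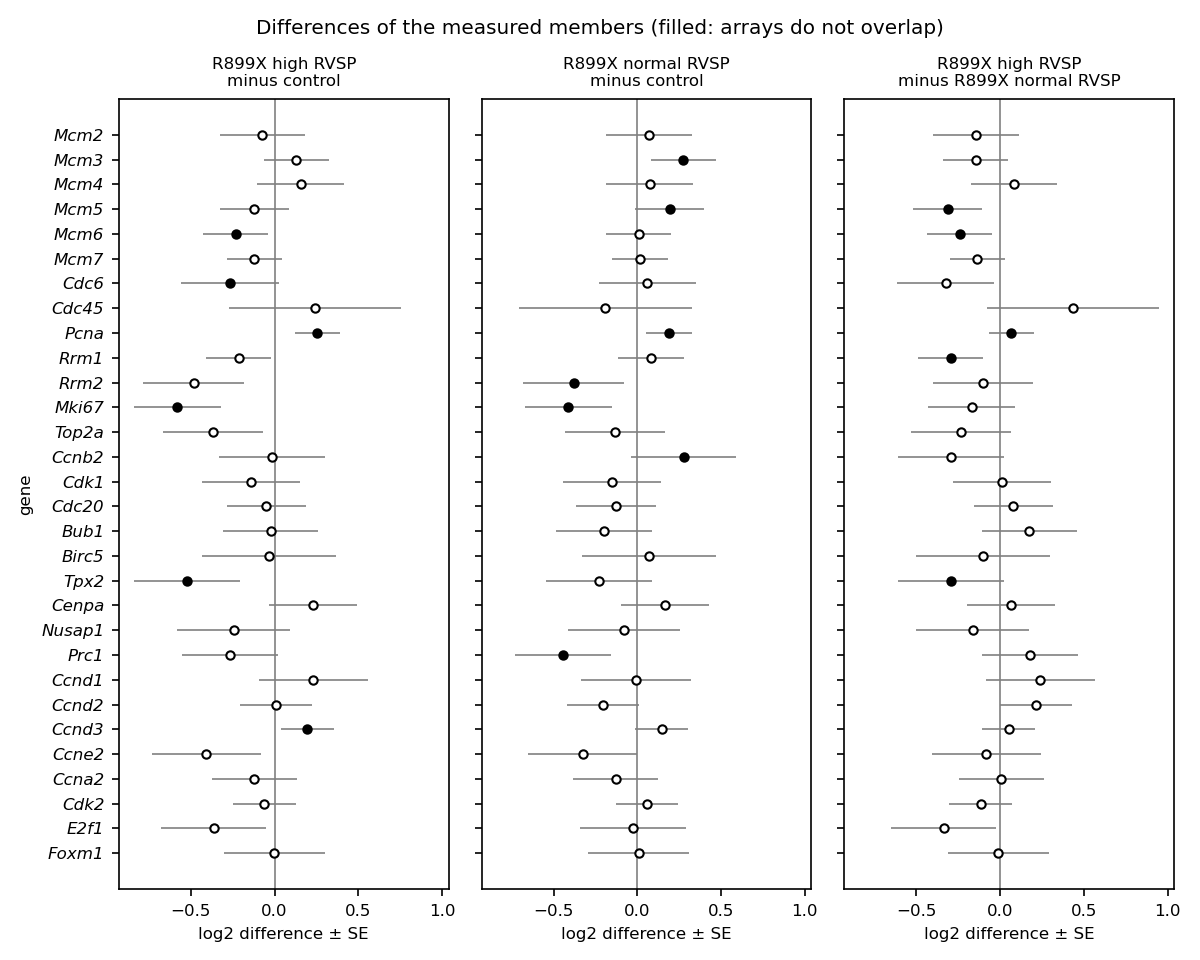
Log2 difference with its limma standard error for the 30 measured members in R899X high RVSP minus control, R899X normal RVSP minus control and R899X high minus normal RVSP. Filled points are genes whose arrays did not overlap between the groups; none passed the adjusted threshold in limma.

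Counted over the members, R899X high RVSP against control gave 8 of 30 genes higher and 22 lower, with a median log2 difference of -0.10. Over all 12557 genes 46.1% were higher and the median was -0.02. Arrays did not overlap for 2 members that were higher (Pcna, Ccnd3) and 4 that were lower (Mcm6, Cdc6, Mki67, Tpx2). Of these, Tpx2 lay under the filter level in both high-RVSP lungs and was kept through its control values. Over all genes the arrays separated upward for 14.3% and downward for 18.3%, so the members separated no more often than that. By class, 7 of 11 replication genes, 10 of 11 mitosis genes and 5 of 5 regulators lay below control. Of the D-type cyclins 3 of 3 lay above (2 of 3 with median centring, and without either control or R899X high RVSP 1). Ccnd2 lay above by only 0.008 ± 0.22. These counts take 1 probe set per gene. Of 19 members with 2 or more kept probe sets, all pointed the same way for 6. That number was 13 for normal RVSP against control, 11 for high against normal RVSP and 8 for all R899X mice. Mcm2, Mcm5, Mcm6, Mcm7, Rrm1, Rrm2, Cdc20, Tpx2 and E2f1, counted as lower, each had 1 kept probe set above control. Below control lay 3 for Mcm7, 2 for Rrm2 and 1 for each of the others. Without R899X high RVSP 1, 13 of 30 members, 5 of 11 replication genes, 5 of 11 mitosis genes and 2 of 5 regulators lay below control. Without control 2, 6 of 11 mitosis genes and 3 of 5 regulators did.

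R899X normal RVSP against control gave 15 of 30 members higher and 15 lower, with a median difference of -0.00. Over all genes 53.7% were higher and the median was 0.02. The classes went apart, with 9 of 11 replication genes above control and 8 of 11 mitosis genes below. Arrays separated upward for 4 members (Mcm3, Mcm5, Pcna, Ccnb2) and downward for 3 (Rrm2, Mki67, Prc1), beside 15% and 12% of all genes. Without R899X normal RVSP 2, 5 of 11 replication genes lay above control, and without control 2, 6 of 11 mitosis genes lay below.

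R899X high against normal RVSP gave 12 of 30 members higher and 18 lower, with a median of -0.10. Over all genes 42.5% were higher and the median was -0.03. With median centring these were 6 higher and 24 lower, and the median over all genes was then -0.12. Without R899X high RVSP 1, 11 of 30 members were lower. Arrays separated upward for 1 member (Pcna) and downward for 4 (Mcm5, Mcm6, Rrm1, Tpx2), beside 11.5% and 19.8% of all genes. For all R899X mice against control 11 of 30 members were higher and 19 lower, where 49.9% of all genes were higher. Without R899X high RVSP 1 these were 17 higher and 13 lower, and without R899X high RVSP 2 they were 5 higher and 25 lower. The arrays separated for Pcna upward and Mki67 downward, beside 6.24% of all genes in each direction. The comparisons with control share the same 2 control arrays, so their agreement on Pcna and Mki67 is not independent.

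Replication and mitosis genes were then set against each other within the arrays. The median difference of replication genes minus that of mitosis genes was 0.02 for R899X high RVSP against control (-0.12 and -0.14), 0.21 for normal RVSP against control (0.07 and -0.13), -0.04 for high against normal RVSP and 0.15 for all R899X mice against control. On single arrays, the mean deviation of replication genes minus that of mitosis genes was 0.07 and -0.01 in high-RVSP lungs, 0.10 and 0.02 in normal-RVSP lungs and 0.05 and -0.22 in control lungs. Control 2 stood apart from the other 5 arrays in that balance, and without it the normal RVSP value was 0.086 and the value for all R899X mice 0.022. The pooled standard deviation between mice of a group was 0.119 in this balance, and no p is given because the genes were chosen with results known.

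In the mean over all 30 members the lowest and the highest array were both of R899X high RVSP mice, at -0.22 and 0.10. R899X high RVSP 1 had mean deviations of -0.21 in replication genes and -0.27 in mitosis genes, while R899X high RVSP 2 had 0.10 and 0.11. R899X high RVSP 1 was the lowest of the 6 arrays for 14 of 30 members, among them Mki67, Top2a, Cdk1, Ccnb2, Nusap1, E2f1, Mcm2 and Rrm2, against 15.9% of all genes. That mouse was the lower of the pair in 23 of 30 members (76.7%), against 51.4% of all genes. The difference of the member median between high RVSP and control was 0.026 when R899X high RVSP 1 was left out and -0.27 when R899X high RVSP 2 was.

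**Figure D5:**
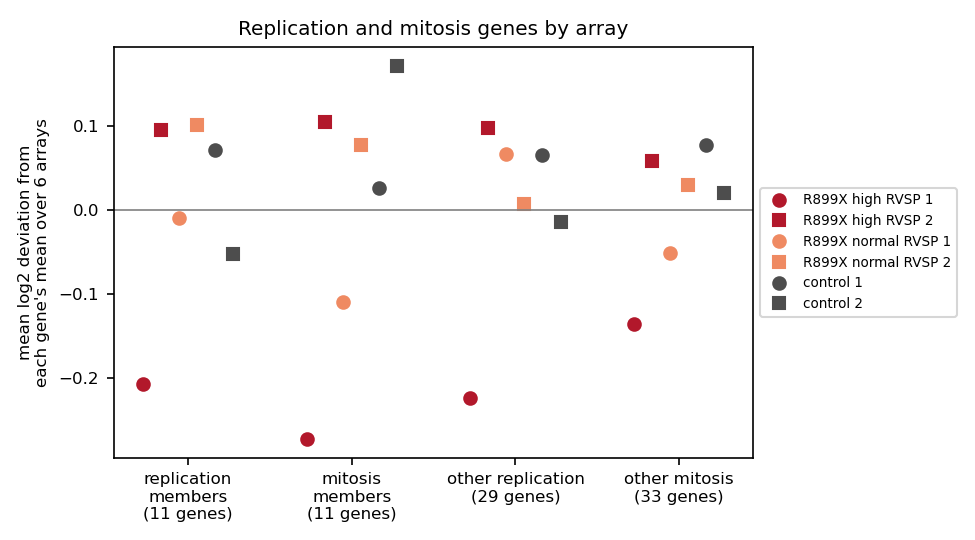
Mean log2 deviation from each gene's mean over the 6 arrays, for replication and mitosis members and for other genes of both processes; each point is 1 mouse, coloured by group, circles for replicate 1 and squares for replicate 2. R899X high RVSP 1 is the lowest point in each of the 4 sets, from -0.14 to -0.27.

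Cell cycle genes outside the members gave a similar picture of that mouse. Of 35 other replication genes 29 were measured and R899X high RVSP 1 was the lowest array for 9, with a mean deviation of -0.22. Of 50 other mitosis genes 33 were measured and it was the lowest for 11, with a mean of -0.14. Against control, 11 of 29 other replication genes and 8 of 33 other mitosis genes were higher in high RVSP mice, and 18 of 29 and 13 of 33 in normal RVSP mice, with 0 past the adjusted threshold in limma. Without R899X high RVSP 1, 20 of 29 other replication genes were higher than control in the remaining high-RVSP lung, and 12 of 33 other mitosis genes. Without control 1, 13 of 33 other mitosis genes were. Their replication minus mitosis medians were 0.01 for high RVSP and 0.18 for normal RVSP against control. On single arrays that balance was -0.09 and 0.04 in high-RVSP lungs, 0.12 and -0.02 in normal-RVSP lungs and -0.01 and -0.03 in control lungs, so R899X normal RVSP 2 lay between the controls.

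The rule for naming picked 3 outside genes of both processes, from 29 replication and 33 mitosis genes in 4 comparisons. Over all 12557 genes, 178 had a limma unadjusted p under 0.05 upward in normal RVSP against control. For all R899X mice 197 did upward, and for high against normal RVSP 153 did downward. These 3 genes are therefore described and not read as a result of both processes. Gmnn (geminin), which blocks a further round of helicase loading, had 711 and 640 in normal-RVSP lungs against 431 and 505 in control lungs (0.52 ± 0.21, limma unadjusted p = 0.0384, adjusted p = 0.987), and 416 and 557 in high-RVSP lungs. Rfc3, a subunit of the complex that loads Pcna onto DNA, had 200.1 and 253 in high-RVSP lungs, 217 and 251 in normal-RVSP lungs and 163 and 154 in control lungs, and all 4 R899X mice lay above both controls (0.49 ± 0.20, limma unadjusted p = 0.0411, adjusted p = 0.832). Anln (anillin), a scaffold of the cleavage furrow, had 144 and 166 in high-RVSP lungs, against 250 and 262 in normal-RVSP lungs and 182 and 201 in control lungs, and high RVSP lay -0.67 ± 0.22 from normal RVSP (limma unadjusted p = 0.0167, adjusted p = 0.9996).

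Of 17 genes that brake the cycle, 15 were measured, and 8 lay above control in high RVSP and 8 in normal RVSP mice. Wee1, the kinase that holds Cdk1 inactive, had 622 and 683 in high-RVSP lungs, 823 and 717 in normal-RVSP lungs and 501 and 588 in control lungs. All 4 R899X mice lay above both controls, by 0.37 ± 0.16 for all R899X mice (limma unadjusted p = 0.0461, adjusted p = 0.832) and 0.49 ± 0.18 for normal RVSP (limma unadjusted p = 0.0281, adjusted p = 0.987). It was picked by the same rule for naming, as the 1 of 15 brakes whose arrays separated upward in each of these comparisons. Over all genes 6.24% and 15% did, so Wee1 is described and not read as a result of the brakes. Of 10 genes of histones and their partners 5 were measured, with 4 above control in each R899X group, and 2 in the normal RVSP group without R899X normal RVSP 2.

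Marker lists of the cells that whole lung can hold were read beside these values. R899X high RVSP 1, where the members were low, also differed from R899X high RVSP 2 in several lists. Of the erythroid markers 4 of 9 were measured, with Alas2, Slc4a1 and Tfrc lower and Gata1 higher in R899X high RVSP 1. They summed to an intensity of 2104 and 6366 in high-RVSP lungs, 4227 and 3525 in normal-RVSP lungs and 2244 and 5205 in control lungs. Macrophage markers, 7 of 7 measured, summed to 13492 and 21243 in high-RVSP lungs, 18068 and 17471 in normal-RVSP lungs and 25680 and 17408 in control lungs. Most of the gap in high-RVSP lungs lay in Chil3, at 4379 and 10839, and Marco went the other way. Lists of B and plasma cells and of neutrophils were higher in sum in R899X high RVSP 1, while Pax5 of the first and Ltf of the second were lower there. The B and plasma cell list, 6 of 7 measured, summed to 7120 and 4193 in high-RVSP lungs, 3855 and 5175 in normal-RVSP lungs and 5229 and 4273 in control lungs. Neutrophil markers, 6 of 9 measured, summed to 56932 and 40157 in high-RVSP lungs, 41345 and 48522 in normal-RVSP lungs and 43209 and 39373 in control lungs. S100a8 and S100a9 made up most of these sums, at 31172 and 22966 in R899X high RVSP 1. The part of these cells in the low values of R899X high RVSP 1 was not tested.

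In the other lists described here, all measured markers pointed the same way in the comparison given. Cardiac muscle markers, 7 of 8 measured, were lower than control in high-RVSP lungs for 7 of 7 genes, 6 of them without overlap, with sums of 17500 and 9144 in high-RVSP lungs, 25543 and 18635 in normal-RVSP lungs and 21764 and 18832 in control lungs. Platelet and megakaryocyte markers, 7 of 7 measured, were higher than control in high-RVSP lungs for 7 of 7, 6 of them without overlap, with sums of 4868 and 7191 in high-RVSP lungs, 4691 and 4751 in normal-RVSP lungs and 3370 and 4543 in control lungs. T cell markers, 6 of 7 measured, were higher than control in high-RVSP lungs for 6 of 6, 4 of them without overlap, with sums of 3239 and 3147 in high-RVSP lungs, 2493 and 3189 in normal-RVSP lungs and 2741 and 2829 in control lungs. Smooth muscle and pericyte markers, 7 of 7 measured, were lower in high-RVSP than in normal-RVSP lungs for 7 of 7, all without overlap, with sums of 22979 and 22210 in high-RVSP lungs, 27930 and 24783 in normal-RVSP lungs and 21263 and 22053 in control lungs. Over all genes the arrays separated upward for 14.3% and downward for 18.3% in high RVSP against control. In high against normal RVSP they separated downward for 19.8%. Markers of the same cell type are read on the same few arrays and can move together. The counts of markers are therefore not independent, and they were not tested against these shares. Of the lists named here none had a gene past the adjusted threshold in limma, and their part in the values of the members was not tested.

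Thymus and germinal centres hold dividing lymphocytes. Of the thymocyte markers 3 of 9 were measured (Themis, Cd8b1, Cd8a), with sums of 599 and 637 in high-RVSP lungs, 526 and 550 in normal-RVSP lungs and 572 and 507 in control lungs. The defining thymocyte markers Rag1, Rag2, Dntt and Ptcra did not exceed an intensity of 69.6 on any array and lay below the filter. Of the germinal centre markers 3 of 6 were measured, with sums of 2521 and 2289 in high-RVSP lungs, 2553 and 2854 in normal-RVSP lungs and 3056 and 2502 in control lungs. Rgs13 did not exceed 19.9 and Mef2b 93.5.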

How the data were processed

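For each array the authors deposited 45101 linear intensities, 1 for every probe set. The algorithm behind these intensities was not given in the sources used here. Per the labels' protocols, the right lung was flushed with saline and its RNA purified on silica columns. With 2% trimmed from either end, each array averaged 500.0. The log2(intensity + 16) of the deposited values was used, with no further normalization because array medians spanned 0.126. The 64 control probe sets and 18015 dim probe sets (the lowest 40% by their average, under about 74.9) were left out, which left 27022, or 12557 genes, each read by its brightest probe set. Platform annotation gave 34958 probe sets 1 symbol, 932 several, and did not list 9211; no symbol changed through a RefSeq table of GRCm38.p6. With R 4.3.3 and limma 3.58.1, 3 group means were fitted to all 6 arrays (3 residual and 5.06 prior degrees of freedom, intensity trend), two-sided, with Benjamini-Hochberg adjustment over all probe sets. With 2 arrays a side, exact permutation allows no p under 0.333, and with 4 against 2 none under 0.0667, so none was run. The procedure was tested on simulated data. Members, classes, lists and tests were chosen with earlier results of these data known. All members were named; of each outside list, up to 4 genes per comparison were named with an unadjusted p under 0.05 and no overlap. Replicates are single mice, per the labels, numbered in accession order. Alternatives were the pseudocount (1 and 64), the filter, quantile or median scaling, the form of the spread, the beta-actin ratio as a covariate, 1 value per gene, and arrays left out.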

Additional observations from a re-analysis of the deposited data

How the results depend on the processing

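No paired analysis was possible because the labels give no number shared between groups. Of the differences given for single probe sets, 33 in 17 genes were followed through the alternatives. All 33 stayed on the same side of the adjusted threshold under every alternative run, and 32 of them kept their direction. The exception is Pcna in high against normal RVSP, at -0.013 with median centring. In all 33 the arrays of the compared groups did not overlap. Such a difference cannot change direction when an array is left out or the pseudocount changes, so those alternatives could not test it. The threshold was also a weak check, because no probe set had an adjusted p under 0.801 in the main limma fit. The smallest adjusted p among them was 0.107.

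The count of probe sets past the threshold was 0 in each comparison. It was 1 for high RVSP against control when the fit held only those groups. With control 1 and R899X normal RVSP 1 both left out it was 313 for high RVSP against control, 131 for normal RVSP against control, 56 for high against normal RVSP and 228 for all R899X mice against control; control and R899X normal RVSP then have 1 array each, assumed to vary like high-RVSP lungs. Leaving out 1 array at a time gave 0 to 2, 0 to 4, 0 to 43 and 0 to 6 calls in the same order.

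The member median for high RVSP against control was -0.25 once the beta-actin ratio entered as covariate. Leaving out 1 array at a time it ranged from -0.27 to 0.026 for high RVSP against control, from -0.09 to 0.04 for normal RVSP against control, from -0.21 to 0.089 for high against normal RVSP and from -0.12 to 0.01 for all R899X mice.

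Replication minus mitosis also moved. With the mean of all kept probe sets of a gene it was 0.21 for high RVSP against control, 0.33 for normal RVSP against control and 0.26 for all R899X mice. With control 1 and R899X normal RVSP 1 left out it was 0.26, 0.42 and 0.36 in the same order, and -0.17 for high against normal RVSP. It was 0.22 for high RVSP against control with the beta-actin covariate and -0.20 for high against normal RVSP with no filter. Leaving out 1 array at a time, it ranged from -0.058 to 0.33 for high RVSP against control, from 0.086 to 0.25 for normal RVSP against control, from -0.17 to 0.071 for high against normal RVSP and from 0.022 to 0.26 for all R899X mice. The cause was not tested. Counts of genes by class without single arrays were added after seeing the data.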
